A study of Mus musculus with 2 samples.

Results

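Sertoli cells are recognised by a small set of transcription factors, hormone receptors and secreted factors, and 9 of these genes are described here in Ago2-bound RNA from the mouse Sertoli cell line TM4. The 9 genes, Wt1, Sox9, Gata4, Nr5a1, Dmrt1, Fshr, Amh, Kitl and Gdnf, were taken by symbol from the 22609 gene rows of the count tables. TM4 is an established line derived from the testis of immature mice, and the study grew it in DMEM with 10% FBS. Cells received either miR-471-5p mimic or scramble, and RNA was collected with an Ago2 antibody 48 h later. Each condition has 1 library, so no difference below has a replicate check and no p-value is given. No library of RNA before the pull-down was analysed here, so RNA level and binding to Ago2 cannot be told apart. In bulk RNA, fewer cells with a transcript and less of it per cell cannot be told apart.

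Of the 9 genes, 5 were well covered in TM4 cells, with at least 20 reads over both libraries: Kitl, Sox9, Gata4, Gdnf and Wt1. The other 4, Amh, Nr5a1, Dmrt1 and Fshr, had between 0 and 5 reads in either library. Over all genes, 12186 of the 22609 rows had at least 20 reads over both libraries, a like share. The line thus gave reads for the transcription factors Sox9, Gata4 and Wt1 and for the niche factors Kitl and Gdnf. It gave few or none for the transcription factors Nr5a1 and Dmrt1, the hormone Amh and the receptor Fshr. In mimic-transfected cells Gdnf and Wt1 had more than 2-fold as many reads as in scramble-transfected cells, whereas Sox9, Gata4 and Kitl differed by less than 2-fold.

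In the embryonic testis, Wt1 and Gata4 act early in the supporting cell lineage, and Sox9 drives its differentiation into Sertoli cells. Nr5a1 encodes SF-1, a nuclear receptor that acts with these factors on genes such as Amh, and Dmrt1 keeps the male fate of the differentiated cell. Amh is the hormone that makes the Müllerian ducts regress, and Fshr is the receptor for follicle-stimulating hormone. Kitl and Gdnf are secreted or membrane-bound ligands that act on germ cells, Kitl through Kit and Gdnf through Gfra1 together with Ret.

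The sequences below are shown because they bear on whether the mimic could pair with any of the 9 transcripts. The first is mature miR-471-5p (RefSeq, GRCm38.p6, minus strand of chromosome X, 66792634 to 66792655), with its seed, bases 2 to 8, in capitals. The second is the stretch of the Gdnf 3′-UTR that holds a 7mer-A1 match, the complement of miRNA bases 2 to 7 followed by A, and the third is the stretch of the Gata4 coding region that holds a 6mer match. In both, the match is in capitals.
miR-471-5p: uACGUAGUauagugcuuuucac
Gdnf 3′-UTR: tgggaagtggagCTACGTAtgcgctgctct
Gata4 coding region: gtcctcgcccgtCTACGTgcccactccgcg

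The Gdnf match lies at position 2323 of the 2743-nucleotide 3′-UTR, in exon 3 of 3, on the plus strand of chromosome 15 from 7837155 to 7837161 (GENCODE M21, GRCm38). The Gata4 match lies at position 111 of the 1329-nucleotide coding region, in exon 2 of 7, on the minus strand of chromosome 14 from 63241033 to 63241038. No other 6mer match was found in the longest 3′-UTR or the longest coding region of the 9 genes, and none of them held a 7mer-m8 match (ACTACGT). Amh has no annotated 3′-UTR in this release to search. For comparison, 170 of the 11751 tested genes with a 3′-UTR held a 7mer-A1 match there (1.45%), and 1914 of 11767 tested genes with a coding region held a 6mer match in it (16.3%). These matches describe the letters only, and binding at them was not tested.

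Reads on genes numbered 18628310 for mimic and 18717225 for scramble. The floor of detection was set at 3 reads, or 0.161 CPM (counts-per-million of the reads on genes) for mimic and 0.160 CPM for scramble. The 9 genes together took 14073 and 17720 reads. Kitl alone accounted for 87.0% and 91.2% of them. Intervals below are 95% intervals that cover counting error only.

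Kitl had 12245 reads after mimic and 16163 after scramble, which placed it at rank 128 and rank 72 among all genes by read number. In RPKM (CPM divided by transcript length in kb), its level was 116 after mimic (exact Poisson interval 114 to 118) and 153 after scramble (151 to 155). This was above 96.2% and 98.0% of the tested genes. Kitl, on the plus strand of chromosome 10 from 100015630 to 100100416 (GRCm38), encodes the ligand that germ cells need through the receptor Kit.

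Sox9 followed with 1228 reads after mimic and 1070 after scramble. Its level was 15.9 RPKM (interval 15.1 to 16.9) and 13.8 RPKM (13.0 to 14.7), above 61.8% and 58.3% of the tested genes. The Sox9 level per kb was thus somewhat above the middle of the tested genes. Kitl stood 7.30-fold higher in the mimic library and 11.1-fold higher in the scramble library. Sox9 lies on the plus strand of chromosome 11 from 112782224 to 112787760.

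Gata4 had 341 reads after mimic and 365 after scramble, or 5.38 RPKM (interval 4.83 to 5.99) and 5.74 RPKM (5.16 to 6.36). Of the tested genes, 34.9% and 35.9% lay below it. Gata4, a zinc finger factor of the gonad, heart and gut endoderm, lies on the minus strand of chromosome 14 from 63198922 to 63271692. Its level per kb was lower than that of Sox9 by a factor of 2.96 after mimic and 2.41 after scramble.

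Gdnf, the ligand that maintains spermatogonial stem cells, had 178 reads after mimic and 77 after scramble. This gave 2.60 RPKM (interval 2.23 to 3.01) and 1.12 RPKM (0.884 to 1.40), above 22.3% and 13.3% of the tested genes. Wt1, the zinc finger factor that Sertoli cells express throughout life, had 73 reads after mimic and 35 after scramble, or 1.27 RPKM (0.994 to 1.59) and 0.605 RPKM (0.422 to 0.842). Both genes were therefore in the lower part of the range in each library, Wt1 above only 14.4% and 9.0% of the tested genes. Gdnf lies on the plus strand of chromosome 15 from 7810846 to 7837575, and Wt1 on the plus strand of chromosome 2 from 105126529 to 105173616.

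Amh had 5 reads in each library, or 0.161 and 0.160 RPKM, with intervals from 0.0522 to 0.375 and from 0.0519 to 0.373. That is above the floor of 3 reads but within the range of genes not thought to be active in this tissue. Of 1459 olfactory and vomeronasal receptor genes, 98.7% after mimic and 98.6% after scramble had 0 reads. The highest had 14 in each, and 3 and 2 of them had at least as many reads as Amh. On the same strand, Sf3a2 ends 318 nucleotides before the start of Amh in GRCm38 and had 2265 and 1607 reads, so that whether the few Amh reads come from Amh transcripts or from reads running on from Sf3a2 was not tested. Amh lies on the plus strand of chromosome 10 from 80805243 to 80807648. The study's methods name Sox9 and Amh as the proteins by which its Sertoli lines were authenticated. In these counts of Ago2-bound RNA, Sox9 and Amh stand far apart, at 1070 to 1228 reads for Sox9 and 5 for Amh. Protein was not measured here, so the counts cannot be set against that authentication.

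Nr5a1 had 2 reads after mimic and 4 after scramble, or 0.0359 RPKM (interval 0.00434 to 0.130) and 0.0714 RPKM (0.0194 to 0.183). An antisense gene, Nr5a1os, overlaps it over 1867 nucleotides, and the strand setting of the counting is not given in the sources used here. Dmrt1 had 1 read in each library. Fshr had 0 reads in both. The floor of 3 reads is 0.0682 RPKM for Fshr after mimic and 0.0679 RPKM after scramble, and the exact 95% Poisson interval reaches 0.0839 and 0.0835 RPKM. These 3 genes were not detectable at this depth above the floor in both libraries. They lie on chromosome 2 from 38692656 to 38714542 (Nr5a1), chromosome 19 from 25505618 to 25604329 (Dmrt1) and chromosome 17 from 88984952 to 89200675 (Fshr).

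**Figure D1:**
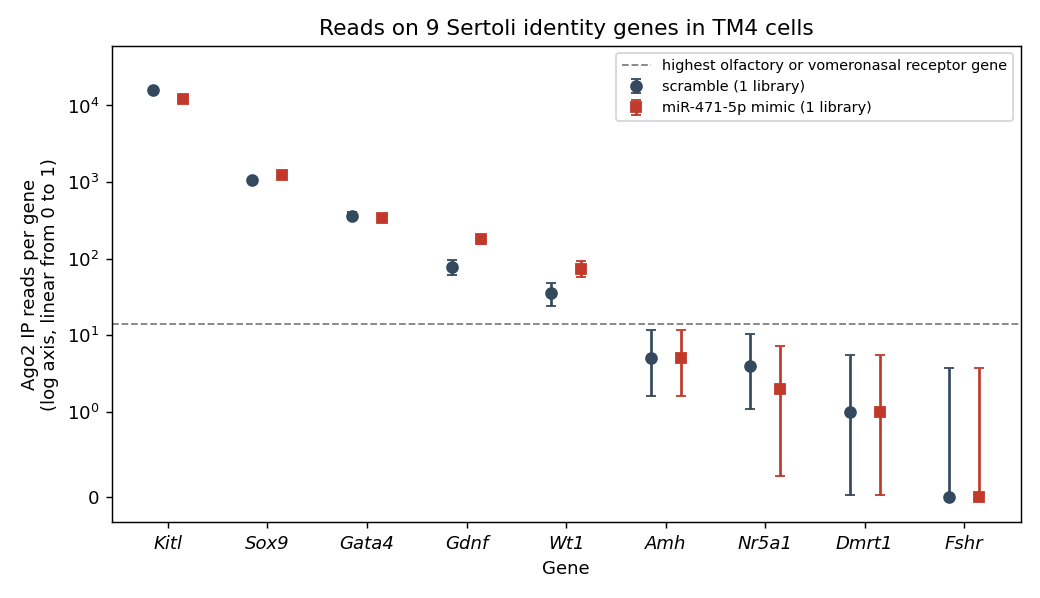
Reads per gene in the scramble library (circles) and the mimic library (squares) for the 9 genes, on a log axis that is linear from 0 to 1, with exact 95% Poisson intervals for counting error. Kitl, Sox9, Gata4, Gdnf and Wt1 lie above the dashed line, the 14 reads of the highest olfactory or vomeronasal receptor gene, whereas Amh, Nr5a1, Dmrt1 and Fshr lie below it at 0 to 5 reads.

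The order of levels per kb was the same in both libraries: Kitl, Sox9, Gata4, Gdnf, Wt1, Amh, Nr5a1, Dmrt1 and Fshr. The counting intervals of neighbours did not overlap from Kitl down to Amh. From Amh down to Fshr the intervals of each pair of neighbours overlapped, so that the order of these 4 genes is not resolved. The narrowest of the resolved steps was between Gdnf and Wt1, at 2.05-fold after mimic and 1.85-fold after scramble.

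Next, the mimic library was compared with the scramble library to see how these genes stood after miR-471-5p was raised. Ratios were scaled with the TMM factors of edgeR, and a gene past 2-fold, a log2 ratio of 1 or more or of -1 or less, was called. Of the 5 tested genes, 2 were called higher (Gdnf and Wt1) and 0 lower. Over all 12186 tested genes, 3.96% were called higher and 3.08% lower. The median log2 ratio of the 5 genes was 0.20, against 0.00 for all tested genes (a value of -0.00063).

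Gdnf showed the largest ratio of the set, with 178 reads after mimic and 77 after scramble. Its log2 ratio was 1.21, with an exact Clopper-Pearson interval from 0.81 to 1.61, or 2.31-fold (1.76 to 3.06). It was above 97.4% of the tested genes. Among the 1982 tested genes with a read number within 2-fold of that of Gdnf, 4.84% were called higher. Gdnf is also the member that carries the 7mer-A1 match printed above. Of the 170 tested genes with such a match in the 3′-UTR, 7.65% were called higher, against 3.73% of those without. Their median log2 ratios were 0.0006 and -0.0006. The 170 genes include those with the longer 8mer match (ACTACGTA), which Gdnf lacks. An 8mer match was held by 47 tested genes, of which 9 were called higher, beside 13 of all 170. Whether the 7mer-A1 match of Gdnf has a part in its ratio was not tested.

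Wt1 had 73 reads after mimic and 35 after scramble, a log2 ratio of 1.06 (interval 0.46 to 1.68), or 2.08-fold (1.38 to 3.21). The lower bound of that interval falls under 2-fold, and at this read number ratios past 2-fold were common. Of 1297 tested genes within 2-fold of the Wt1 read number, 9.71% were called higher and 8.56% lower. The antisense gene Wt1os lies 18 nucleotides from Wt1 and was not analysed here.

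Sox9 had 1228 reads after mimic and 1070 after scramble, a log2 ratio of 0.20 (interval 0.08 to 0.32), and its interval leaves out 0 for counting error alone. The middle of the tested genes with like read numbers, from the 5th to the 95th percentile, ran from -0.63 to 0.68, and Sox9 lay well inside it. Gata4 had a log2 ratio of -0.10 with an interval from -0.32 to 0.12 that includes 0, so a difference was not detectable at this depth beyond a factor of 0.803 to 1.09.

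Kitl had fewer reads after mimic, 12245 against 16163, a log2 ratio of -0.40 with a narrow interval from -0.44 to -0.37. It stood above 16.8% of all tested genes. In the 346 tested genes with like read numbers the 5th percentile was -0.58 and the 95th was 0.65, so Kitl lay inside their range. Transcript length moved with the ratio across genes: the median log2 ratio was 0.43 in the tenth with the shortest transcripts and -0.25 in that with the longest. Kitl, with a transcript of 5648 nucleotides, falls in a group with a median of -0.21, and its log2 ratio less that median was -0.19. The same difference was 1.26 for Gdnf, 1.06 for Wt1, 0.28 for Sox9 and -0.10 for Gata4. The part of length in these ratios was not tested.

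Amh had equal reads in the libraries, and the interval of its log2 ratio, -2.12 to 2.12, shows how little 10 reads can tell. Nr5a1, with 2 and 4 reads, had an interval from -4.47 to 1.8. No ratio is given for Dmrt1 and Fshr, which were at or under the floor in both libraries.

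**Figure D2:**
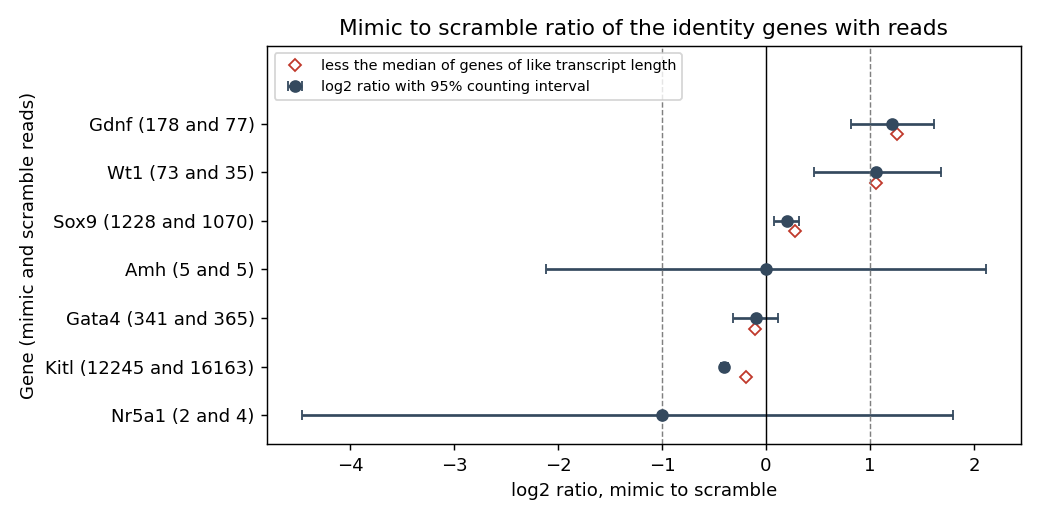
Log2 ratio of mimic to scramble for the 7 genes with more than 3 reads in either library, with exact 95% Clopper-Pearson intervals for counting error (circles and bars) and, for the 5 tested genes, the log2 ratio less the median of genes of like transcript length (diamonds). Gdnf at 1.21 and Wt1 at 1.06 lie past the dashed line at 1, whereas Kitl moves from -0.40 to -0.19 when length is taken into account.

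**Figure D3:**
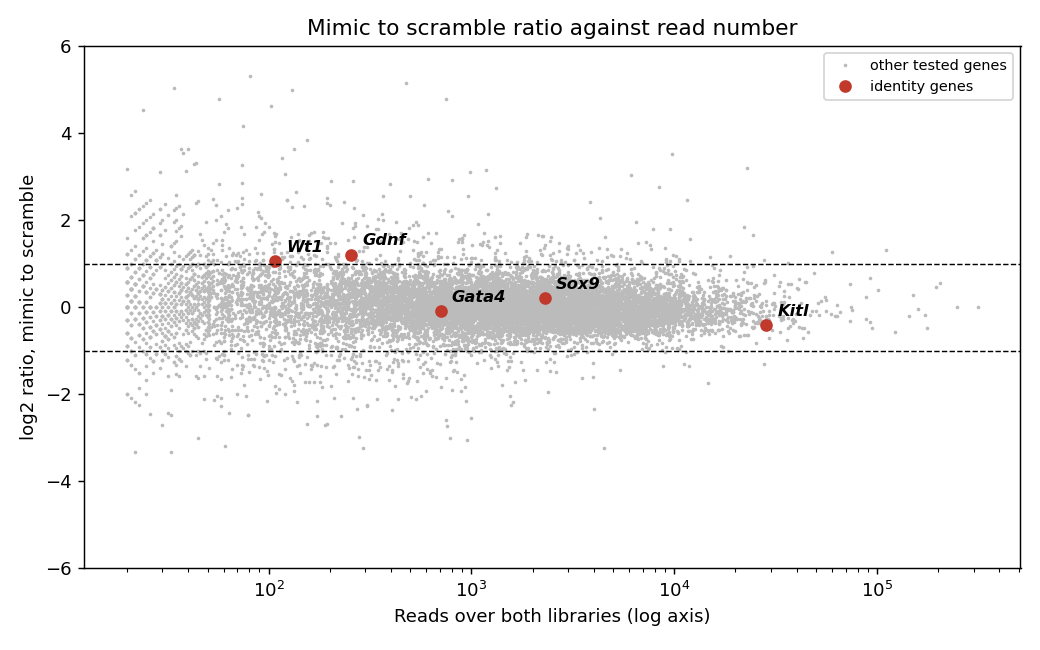
Log2 ratio of mimic to scramble against the number of reads over both libraries (log axis) for the 12186 tested genes, with the 5 tested identity genes named and dashed lines at 1 and -1. Gdnf and Wt1 sit just past the upper line where ratios spread widely, and a gene with 0 reads in a library is drawn with 3 reads there.

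The ligands were then set beside their receptors. Kit, the receptor for Kitl, had 3 reads after mimic and 1 after scramble, and Ret, the signalling receptor for Gdnf, had 2 and 0. Both were at or under the floor. Gfra1, the co-receptor that binds Gdnf, had 285 and 265 reads, a log2 ratio of 0.10 with an interval from -0.14 to 0.35. Amhr2, the receptor for Amh, had 25 and 16 reads and a log2 ratio of 0.64 with an interval from -0.32 to 1.65. Ncam1, an adhesion molecule that can also serve as a receptor for Gdnf with Gfra1, had 1953 and 951 reads, a log2 ratio of 1.04 with an interval from 0.92 to 1.15. Of this list of 5 genes 3 were tested, 1 was called higher, Ncam1, and 0 lower. Over all tested genes, 3.96% were called higher and 3.08% lower.

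Of all 22609 gene rows, 12186 had 20 reads or more over both libraries. Of 24 genes that act with these factors in sex determination and Sertoli fate, 16 did. Highest per kb in the scramble library were Cited2, Cbx2, Map3k4, Emx2 and Gadd45g, at 86.2, 39.8, 29.7, 27.4 and 26.5 RPKM, each above the 13.8 RPKM of Sox9. Emx2 and Cbx2 act in the early gonad upstream of Sertoli differentiation, and Map3k4 and Gadd45g in the pathway that switches on Sry. Cited2, a transcriptional co-activator that works with Wt1 in the early gonad, was the only called gene of the 16. It had 8067 reads after mimic and 3892 after scramble and a log2 ratio of 1.05 (interval 0.996 to 1.11). Calls over all tested genes were 3.96% higher and 3.08% lower. The median log2 ratio of the 16 was 0.20. Sry itself had 0 reads in both libraries. Further genes of the Sertoli programme had few reads, with 2 and 2 reads for Sox8, 2 and 7 for Fgf9, 3 and 0 for Ptgds and 1 and 0 for Dhh.

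Products and receptors of differentiated Sertoli cells were less well covered, with 12 of 30 genes at 20 reads or more. Rhox8, Tsx, Cst12, Gata1 and Erbb4 had 0 reads in both libraries. The secreted carriers Trf and Shbg, transferrin and androgen-binding protein, had 4 and 0 reads and 2 and 0 reads. Cldn11, the tight junction claudin of the blood-testis barrier, had 5 and 1. Highest per kb in the scramble library were Cxcl12, Ctsl, Etv5, Gja1 and Clu, at 724, 26.3, 10.2, 6.75 and 4.81 RPKM. Cxcl12, a chemokine of the niche, had 66547 and 76298 reads, so that Kitl stood at 0.183 of its level after mimic and 0.211 after scramble.

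Of the 12 tested genes of that list 0 were called higher and 3 lower, beside 3.96% and 3.08% of all tested genes. Etv5, an ETS factor needed in Sertoli cells for upkeep of spermatogonial stem cells, had 312 reads after mimic and 756 after scramble, a log2 ratio of -1.28 with an interval from -1.47 to -1.09. Abhd2, a lipase, had 40 and 169 reads and a log2 ratio of -2.08. Aldh1a1, a retinoic acid synthesising enzyme, had 13 and 28 reads and a log2 ratio of -1.11 with an interval from -2.18 to -0.11. It is no longer among the tested genes at a filter of 200 counts, which leaves 2 called lower. The median log2 ratio of the 12 tested genes was 0.21. Etv5 and Gdnf, both known for the stem cell niche, were thus called in opposite directions.

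Among paralogs of the members, Gata6 and Gata3 had higher levels per kb than Gata4. Gata6 had 1654 and 1389 reads, at 23.5 and 19.6 RPKM, which was 4.36-fold and 3.42-fold the level of Gata4. Gata3 stood at 9.02 and 7.20 RPKM and Gata2 at 4.57 and 5.39 RPKM. Of the Dmrt genes, Dmrt2 had 62 and 121 reads and Dmrta2 had 143 and 82, whereas Dmrt1 had 1 and 1. Nr5a2, Sox10, Dmrt3, Gata5, Lhcgr and Tshr had 0 reads in both libraries, so neither Nr5a gene and none of the receptors for FSH, LH and TSH was detected. Csf1, a growth factor for macrophages, and Lgr4, a receptor for R-spondins, reached 68.2 and 41.7 RPKM in the scramble library. Of the 8 tested paralogs, counted without Gata6, 0 were called, beside 3.96% higher and 3.08% lower over all tested genes.

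Genes that mark other cells of the testis were counted in the same way, since TM4 is labelled as a Sertoli line. Several stromal genes were far above the identity genes. Acta2, smooth muscle actin of myoid cells, had 73076 and 101778 reads, 16.6-fold and 17.5-fold the level of Kitl per kb and 121-fold and 193-fold that of Sox9. Tagln, Actg2 and Smtn followed at 227, 39.6 and 26.3 RPKM in the scramble library. The other genes of the myoid list, Myh11, Des and Cnn1, had between 6 and 17 reads. Col1a2 had 112585 and 81419 reads, Col1a1 had 37113 and 37188, and Thy1 had 7637 and 6952. In the same list Lum had 12 and 2 reads and Tcf21 had 0 and 1. Summed over the list, myoid genes stood at 2193 RPKM after mimic and 2966 after scramble, and fibroblast genes at 2081 and 1657. Of the 9 fibroblast genes 7 were tested and Dcn was called higher, beside 3.96% of all tested genes. Dcn had 3478 reads after mimic and 839 after scramble, a log2 ratio of 2.05. Whether these genes have a part in the ratios of Gdnf and Wt1 was not tested.

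Some supporting cell genes of the ovary were present as well, and others were not. Runx1, Fst and Wnt4 stood at 35.3, 21.99 and 8.50 RPKM in the scramble library. Of the 8 genes 6 were tested with 0 called, beside 3.96% higher and 3.08% lower over all tested genes. Foxl2, the factor that sets the ovarian fate, had 22 reads after mimic and 11 after scramble, fewer than Sox9 by a wide margin. Its log2 ratio of 0.99937 falls just under the threshold for a higher call, with an interval from -0.11 to 2.19 that includes 0. Per kb, Foxl2 stood at 0.363 RPKM after mimic and 0.180 after scramble, beside 0.161 and 0.160 for Amh. Rspo1 had 0 reads after mimic and 1 after scramble, and Cyp19a1 had 0 reads in both libraries.

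Leydig, germ, endothelial and white blood cell markers were low. Summed levels in the mimic and scramble libraries were 1.65 and 1.63 RPKM for 8 Leydig genes, 6.40 and 6.54 for 10 germ cell genes, 0.601 and 0.717 for 5 endothelial genes, and 3.33 and 1.60 for 7 genes of macrophages and leukocytes. The Leydig genes highest per kb in the scramble library were Star with 60 and 69 reads, Insl3 with 4 and 5, and Cyp17a1 with 11 and 6, and Lhcgr had 0. The germ cell genes highest per kb in the scramble library were Sycp3 with 58 and 48 reads, Ddx4 with 46 and 74, and Tnp1 with 9 and 10. Mael, a germ cell gene, had 7 and 14 reads, and its log2 ratio of -1.00063 falls on the threshold for a lower call with an interval from -2.55 to 0.40 that includes 0. In the endothelial list Tek had 44 and 51 reads, Pecam1 had 6 and 7, Cdh5 had 0 and 1, and Emcn had 0. In the leukocyte list Cd14 was called higher, with 81 and 26 reads, Csf1r had 18 and 25 and Cd68 had 8 and 9, whereas Ptprc, Adgre1 and Itgam had 0. Amh and Nr5a1 thus had no more reads than several markers of cells that the line is not said to hold. In the scramble library the 35 reads of Wt1 were also fewer than those of Star, Sycp3, Ddx4 and Tek. After mimic the 73 reads of Wt1 were more than theirs. Per kb, Gdnf lay below Sycp3 in both libraries, at 2.60 against 2.66 RPKM after mimic and 1.12 against 2.19 after scramble.

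**Figure D4:**
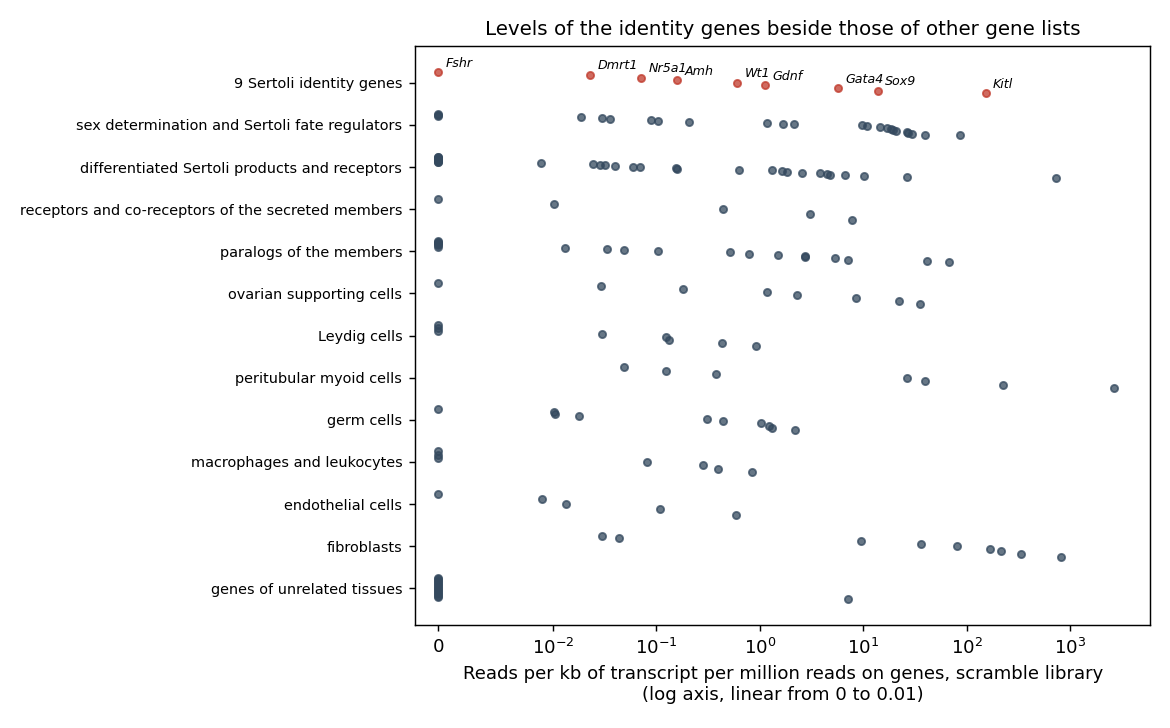
RPKM in the scramble library for each gene of each list (log axis, linear from 0 to 0.01), with the 9 identity genes named at the top. Kitl at 153 RPKM lies among the fibroblast genes, and Sox9 and Gata4 lie at 13.8 and 5.74 RPKM. Amh, Nr5a1, Dmrt1 and Fshr lie in the range of Leydig, endothelial and unrelated tissue genes. Wt1, at 0.605 RPKM, also lies below Star of the Leydig list. Mbp of the unrelated tissue list, at 7.17 RPKM, lies above Gata4, Gdnf and Wt1.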

How the data were processed

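Ago2 IP RNA from 1 mimic-transfected and 1 scramble-transfected TM4 culture was sequenced by the authors. They deposited raw read counts per gene symbol, without normalization, 22609 genes and 5 summary rows per table. The submitters' processing notes name CASAVA 1.8.2, TopHat2 2.0.8b, HTSeq and the build mm9. The annotation and strand setting are not given in the sources used here. Reads with more than 1 alignment, which were not assigned to genes, made up 39.8% of entries in the mimic table and 35.6% in the scramble table. Genes sharing sequence may be undercounted.

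From these counts, TMM factors (1.0026 for mimic, 0.9974 for scramble; edgeR 4.0.16 under R 4.3.3) were computed over the 12186 genes with at least 20 counts in both libraries together. With a lone library in each condition edgeR's quasi-likelihood test could not be fitted. Called means at least 2-fold. A count of 0 was set to 3 in a ratio. Intervals are exact Poisson (levels) and Clopper-Pearson (ratios), and cover counting error only. Levels per kb used the longest GENCODE M21 transcript (GRCm38), found for 99.1% of tested genes. Coordinates are from that release and not from the build of the counting. Scripts ran in Python 3.11.15 and were tested on simulated data. The members, the lists and the rule for named genes were chosen with earlier results of these data known. The rule named all members, called genes of the 4 Sertoli lists with their 5 highest per kb, and the 3 highest of each other cell type with markers at 0, and further genes were chosen after their values were seen. Rhox5 and Gh1 were not analysed here. A further listed gene is not reported here. Alternatives were DESeq2 1.42.0 size factors, total counts, other count filters, a 1.5-fold threshold, other floors and a correction for length.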

Additional observations from a re-analysis of the deposited data

How the results depend on the processing

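No paired analysis was possible because each condition has 1 library. The log2 ratios of the 5 tested genes kept their sign in each alternative run, and with DESeq2 size factors, total counts or another count filter each stayed inside its counting interval. Relative to genes of like transcript length, Kitl moved from -0.40 to -0.19. With at least 200 counts over both libraries 1 of the identity genes was past 2-fold higher, because Wt1 was no longer tested, and over all genes 240 were higher and 185 lower. With no filter on low counts 1 identity gene was past 2-fold lower, Nr5a1 with 2 and 4 reads, as were 7 companion genes higher and 5 lower, against 2 and 3, and over all genes 789 and 676, against 483 and 375. At a threshold of 1.5-fold 2 identity genes were higher, as in the main setting, while 6 companion genes were higher and 6 lower, and over all genes 1420 and 1110. The count of 6 detected genes (over 3 reads in each library) was 5 at over 10 reads and 8 at any read or above the 95th percentile of olfactory and vomeronasal receptor genes, which was 0. Levels per kb could not change with the transcript of the longest coding region, which was the longest transcript for each of the 9 genes. A 2 to 1 count falls almost on the threshold, so that small shifts of scaling move calls of genes with few reads. Depth limits Amh, Nr5a1, Dmrt1 and Fshr.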

Other observations

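Of 16 genes of unrelated tissues found in the tables, 11 had 0 reads in both libraries, among them Alb of the liver and Ins2 of the pancreas. Mbp, known from myelin, was the exception with 707 reads after mimic and 644 after scramble, 7.91 and 7.17 RPKM. Its level per kb was above that of Gata4 in both libraries.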
